A study of Homo sapiens with 21 samples.

Results

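Cells that had lost the short arm of chromosome 3 (3p loss) and cells that had gained the long arm (3q gain) were pooled and set against WT cells of the same isogenic set, to describe what changed in both whatever the arm. The members were 9 of the 21 libraries of the series, namely the 3 libraries of 3p loss mRNA, the 3 of 3q gain mRNA and the 3 of chromosome 3 WT mRNA, and they were chosen by their genotype labels alone. All were made from human lung epithelial cells of one line, and poly(A) RNA was read from both ends with a strand-marking kit. The 6 altered libraries are 2 genotypes with 3 biological replicates each. Whether each genotype was 1 clone was not given in the sources used here.

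Ribosome-protected footprints of 3p loss and of 3p WT, as the footprint WT is labelled (3 libraries each), and mRNA of 8p loss and 8p WT cells of the chromosome 8 set (3 each), served as other measurements of the same genes. No footprint library of 3q gain was among the samples. Both altered genotypes were compared with the same WT libraries. A change common to both therefore cannot be told apart, in these 9 libraries, from a change in the WT cells.

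A cell that loses or gains a chromosome arm carries a changed dose of every gene on it, and such cells are known for imbalanced protein complexes, for altered stress signalling and, in many systems, for raised interferon signalling. The integrated stress response is a pathway in which phosphorylation of a translation factor raises the protein ATF4, which switches on genes of amino acid supply. NF-kappa-B transcription factors switch on cytokine and chemokine genes in airway epithelium, and TGF-beta and activin signalling raise matrix and mesenchymal genes there.

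The deposited mRNA values were taken as TPM, a transcript's share of the library scaled to one common sum, and they summed to 904850 to 916783 over protein-coding genes. The depth behind them is unknown, and in bulk RNA fewer cells of a type and less RNA per cell cannot be told apart. All 10 epithelial markers had a mean of at least 1 TPM, with summed levels of 18445 to 30971 TPM in 3p loss, 14055 to 23137 TPM in 3q gain and 13735 to 20465 TPM in WT libraries. Of 10 club, alveolar and ciliated markers 8 were below 1 TPM, SCGB1A1, SFTPC and FOXJ1 among them, and the list summed to 9.72 to 20.3 TPM in 3p loss, 9.74 to 37.6 TPM in 3q gain and 8.89 to 16.2 TPM in WT libraries, nearly all from TUBA1A and AGER. Of 7 blood cell markers 5 were below 1 TPM, PTPRC among them, and the sums were 9.71 to 33.6, 17.3 to 19.9 and 13.1 to 17.5 TPM in 3p loss, 3q gain and WT. Of 6 endothelial markers 5 were below 1 TPM, PECAM1 among them, but KDR raised the sum to 3.42 to 14.5 TPM in 3p loss, against 0.436 to 0.61 TPM in 3q gain and 0.369 to 0.788 TPM in WT, and KDR differed between 3p loss and 3q gain (2.45 (95% interval 1.47 to 3.44, limma adjusted p = 0.015)). Fibroblast markers, of which 5 of 8 were below 1 TPM, summed to 8.06 to 124 TPM in 3p loss, 3.18 to 7.25 TPM in 3q gain and 5.27 to 8.72 TPM in WT libraries. The part of these cell type markers in the results was not tested. On the log2 scale, pairs of one genotype correlated at 0.953 to 0.981, pairs of 3p loss with 3q gain at 0.944 to 0.966, 3p loss with WT at 0.915 to 0.933 and 3q gain with WT at 0.927 to 0.956. Some libraries also carried shifts of their own in the mean level of an arm, which need not cover the whole arm. WT replicate 2 was low on 10p, 10q and 13q, WT replicate 1 was high on 18p, 3p loss replicates 1 and 3 were low on 10p, 3p loss replicate 2 on 16p, 3q gain replicate 3 on 2q, and 3p loss replicate 2 and 3q gain replicates 2 and 3 on 7q.

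Of 17756 genes in the table, 11225 had a mean of at least 1 TPM over the 9 libraries and were tested in limma on log2(TPM + 1), with the 6 altered libraries as one group. At a Benjamini-Hochberg adjusted p under 0.05, 963 genes (8.58% of those tested) were called, 436 higher (3.88%) and 527 lower (4.69%) in altered cells. The altered and WT libraries did not overlap in 412 of the 436 and in 503 of the 527. Without regard to calls, all 6 altered libraries were above all 3 WT libraries in 8.54% of tested genes and below them in 8.89%. The median change of all tested genes was 0.01 on the log2 scale, and median centring turned the split to 644 higher and 464 lower. Of the 963 genes, 19 also differed between 3p loss and 3q gain when these were tested against each other in limma, where 441 of all tested genes (3.93%) were called, 0.873% higher and 3.06% lower in 3p loss. Against the WT libraries that both share, 15.0% of genes were called in 3p loss alone (6.17% higher and 8.8% lower) and 5.27% in 3q gain alone (2.6% higher and 2.67% lower). A pooled call thus does not mean a call in each genotype. For instance, IRX2, IFI27, ARMCX3, CCND2, FLI1 and PMEPA1, described below, were not called in 3q gain against WT (limma adjusted p of 0.052 to 0.086). BEX2 was not called in 3p loss against WT (limma adjusted p = 0.067). The number of calls rested on single libraries. Leaving out WT replicate 3 gave 294, and leaving out WT replicate 2 gave 424. Leaving out 3q gain replicate 3 gave 568, and replicate 2 of that genotype 620. With the replicate number as a block 636 were called. Chromosomes 3, 21 and 22 hold the altered arms and the stretches of 21q and 22q described below. On chromosomes 2, 7, 10, 13, 16 and 18, the mean of an arm was shifted by over 0.4 on the log2 scale in single libraries. Outside all of these, 602 of 7687 genes were called, 309 higher and 293 lower. Other shifts remained there. The level of 9q ran from -0.024 in 3q gain replicate 2 to 0.496 in WT replicate 2. Distal 11q was low in 3p loss replicate 3 and 3q gain replicate 3, and distal 17q was high in WT replicate 2. Of the 105 called genes named here, 46 kept the call in every alternative and 59 lost it without WT replicate 2 or WT replicate 3.

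The 12 genes with the largest falls shared by both genotypes were CSF3, INHBA, FN1, IL1A, TNF, TFPI2, ROBO1, BCAT1, G0S2, KRT14, STC2 and ADM2. CSF3, the granulocyte colony-stimulating factor (chromosome 17, 40015440 to 40017813), had 0.276, 0.533 and 0.271 TPM in 3p loss, 0.453, 0.371 and 0.0830 TPM in 3q gain and 33.3, 39.7 and 12.8 TPM in WT libraries. Every altered library was below 1 TPM and every WT library above 10. The change over both genotypes was -4.34 ± 0.32 (limma adjusted p = 0.000329), with estimates of -4.31 ± 0.38 in 3p loss and -4.37 ± 0.38 in 3q gain. INHBA, which encodes the activin A subunit (chromosome 7, 41685114 to 41705406), had 0.269, 0.945 and 1.14 TPM in 3p loss, 1.83, 1.39 and 0.723 TPM in 3q gain and 29.6, 52.0 and 43.5 TPM in WT libraries. The altered libraries lay far below the WT libraries, with a change of -4.39 ± 0.27 (limma adjusted p = 0.000119). FN1, the gene of the matrix protein fibronectin (chromosome 2, 215360865 to 215436068), had 46.9, 24.5 and 207 TPM in 3p loss, 280.5, 94.7 and 17.8 TPM in 3q gain and 1056, 1662 and 1421 TPM in WT libraries. The altered libraries varied widely but stayed below all WT libraries, and the change was -4.25 ± 0.79 (limma adjusted p = 0.0127). The call was lost without WT replicate 2 or WT replicate 3 (limma adjusted p = 0.052 and 0.0579). FN1 lies on distal 2q, where 3q gain replicate 3 was low. Averaged over the arm, the shift was 0.43 on the log2 scale against the median library. The mean log2 level of the genes around FN1, relative to other autosomes, was -0.67 in that library and 0.17 to 0.36 in the others.

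IL1A, an epithelial alarm cytokine (chromosome 2, 112773925 to 112784493), had 18.5, 4.98 and 9.14 TPM in 3p loss, 33.6, 13.9 and 9.74 TPM in 3q gain and 68.9, 158 and 213 TPM in WT libraries. The highest altered library, 3q gain replicate 1, lay below the lowest WT library, and the change was -3.29 ± 0.51 (limma adjusted p = 0.00609). TNF, the inflammatory cytokine (chromosome 6, 31575565 to 31578336), had 0.239, 0.524 and 0 TPM in 3p loss, 0.425, 0.321 and 0.350 TPM in 3q gain and 41.1, 6.43 and 5.86 TPM in WT libraries. WT replicate 1 stood well above the other WT libraries, yet all altered libraries were below 1 TPM (-3.31 ± 0.50, limma adjusted p = 0.00575). TFPI2, an inhibitor of serine proteases, had 2.50 ± 1.95 TPM in the altered libraries and 26.5 ± 15.5 TPM in WT (SD, n = 6 and 3), and its change was -3.06 ± 0.55 (limma adjusted p = 0.0108). TFPI2 lies on 7q, where the arm level was low in 3p loss replicate 2 and 3q gain replicates 2 and 3. It had 0.287, 3.30 and 0.406 TPM in these libraries, and 1.90, 4.96 and 4.14 TPM in the other altered libraries.

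ROBO1, the axon guidance receptor that binds SLIT ligands, lies on 3p (chromosome 3, 78597239 to 79767998). It had 0.125, 0.154 and 0.264 TPM in 3p loss, 0.0501, 0.495 and 2.08 TPM in 3q gain and 15.9, 14.5 and 19.2 TPM in WT libraries. It was close to 0 also in 3q gain, whose label names no change of 3p, with 3q gain replicate 3 the highest altered library (-3.88 ± 0.36 in 3p loss and -3.36 ± 0.36 in 3q gain). BCAT1, the cytosolic transaminase of branched-chain amino acids, had 0.414 ± 0.638 TPM in the altered libraries and 13.4 ± 1.83 TPM in WT (SD, n = 6 and 3; -3.44 ± 0.31, limma adjusted p = 0.000755). G0S2, an inhibitor of triglyceride breakdown, had 1.42 ± 1.13 TPM in the altered libraries and 42.7 ± 43.4 TPM in WT (SD, n = 6 and 3; -3.77 ± 0.55, limma adjusted p = 0.00438). KRT14, a keratin of basal cells, had 336, 60.6 and 236 TPM in 3p loss, 10.5, 72.8 and 81.8 TPM in 3q gain and 611, 1862 and 1664 TPM in WT libraries. The altered libraries spanned a wide range below the WT libraries (-3.89 ± 0.89, limma adjusted p = 0.0279), and the call was lost in several alternatives, with an adjusted p of up to 0.106.

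STC2 and ADM2, a secreted glycoprotein and a peptide hormone of the calcitonin family that are both induced under stress, fell as well. STC2 had 8.94, 9.40 and 5.71 TPM in 3p loss, 5.71, 6.12 and 8.21 TPM in 3q gain and 21.4, 108 and 137 TPM in WT libraries, and ADM2 had 0.418, 0.368 and 0.472 TPM in 3p loss, 0.504, 0.412 and 0.673 TPM in 3q gain and 3.67, 18.0 and 30.6 TPM in WT libraries. In both, WT replicate 1 was the lowest WT library and still above every altered one. The changes were -3.08 ± 0.48 (limma adjusted p = 0.00609) and -3.26 ± 0.48 (limma adjusted p = 0.0045). In the direct contrast of 3p loss with 3q gain, limma called 0 of the 12 genes, as did limma without a mean-variance trend, and 1 was under an unadjusted p of 0.05. Their differences there ran from -0.74 to 2.04 on the log2 scale, the widest being that of KRT14, 2.04 (95% interval 0.16 to 3.92, limma adjusted p = 0.274). Such intervals leave room for real differences between the genotypes. Few calls were also favoured by the choice of the 12 genes, which a difference between the genotypes counted against. Of all tested genes, 3.93% were called in this contrast.

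**Figure D1:**
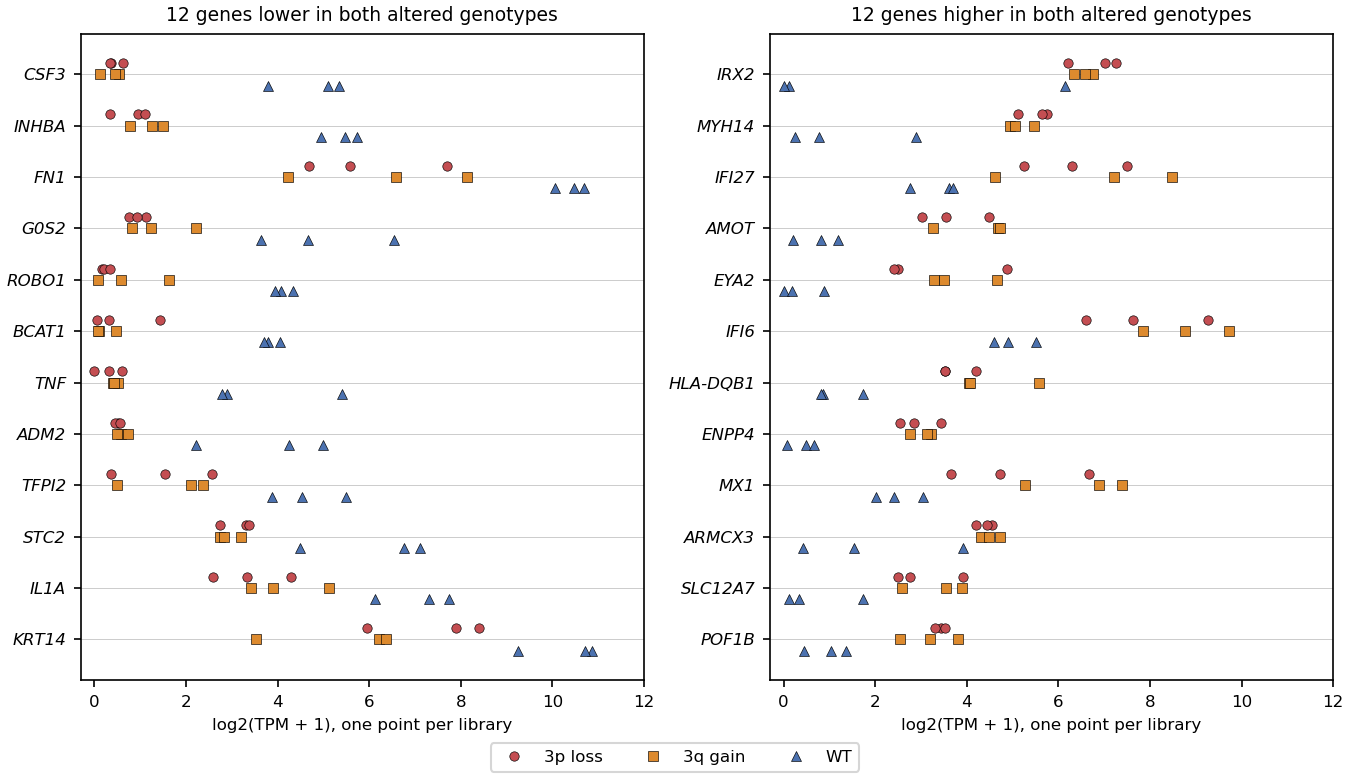
Levels of the 12 genes with the largest shared fall (left) and the 12 with the largest shared rise (right) in each of 9 libraries, on the log2(TPM + 1) scale. Circles are 3p loss, squares 3q gain and triangles WT. For every gene shown the 6 altered libraries lie on one side of the 3 WT libraries, which the choice of genes required, and for IRX2 and ARMCX3 a single WT library (69.7 and 14.1 TPM) comes close to the altered ones.

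The genes that rose furthest included 3 of the interferon response, a nonmuscle myosin and an angiomotin. MYH14, a nonmuscle myosin heavy chain (chromosome 19, 50203622 to 50310540), had 53.1, 49.2 and 34.0 TPM in 3p loss, 29.9, 32.1 and 43.4 TPM in 3q gain and 0.181, 0.700 and 6.47 TPM in WT libraries. All altered libraries were far above WT replicates 1 and 2 and above WT replicate 3 by less (4.03 ± 0.48, limma adjusted p = 0.00182). AMOT, a junctional scaffold protein that binds the co-activator YAP (chromosome X, 112774877 to 112840831), had 21.5, 7.19 and 10.7 TPM in 3p loss, 8.66, 24.8 and 25.3 TPM in 3q gain and 0.160, 0.758 and 1.29 TPM in WT libraries. Its groups did not overlap (3.22 ± 0.42, limma adjusted p = 0.00282). IRX2, a homeobox transcription factor (chromosome 5, 2735635 to 2751677), had 152, 129 and 72.9 TPM in 3p loss, 79.9, 107 and 94.6 TPM in 3q gain and 0.0925, 0 and 69.7 TPM in WT libraries. WT replicate 3 was close to the lowest altered library while the other WT libraries were near 0. Its change was 4.60 ± 1.11 (limma adjusted p = 0.033), a call lost in 9 of 17 alternatives. Among these were the fits without WT replicate 1 or WT replicate 2, at limma adjusted p of 0.102 and 0.118, and the fits without any 1 of the 3p loss libraries.

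IFI6, an interferon-induced protein of the endoplasmic reticulum and mitochondria (chromosome 1, 27666064 to 27672192), had 196, 96.6 and 614 TPM in 3p loss, 843, 229 and 433 TPM in 3q gain and 44.8, 28.9 and 23.3 TPM in WT libraries. MX1, an antiviral GTPase (chromosome 21, 41420558 to 41459214), had 25.6, 11.6 and 100.2 TPM in 3p loss, 168, 37.8 and 117 TPM in 3q gain and 4.30, 3.07 and 7.21 TPM in WT libraries. IFI27, another interferon-induced gene (chromosome 14, 94105894 to 94116690), had 77.7, 36.9 and 181 TPM in 3p loss, 23.6, 148 and 355 TPM in 3q gain and 11.2, 5.80 and 12.0 TPM in WT libraries. In all 3 the altered libraries differed from each other several-fold, and 3p loss replicate 2 was the lowest 3p loss library. Their changes were 3.30 ± 0.59 (limma adjusted p = 0.0108), 3.28 ± 0.73 (limma adjusted p = 0.0259) and 3.20 ± 0.74 (limma adjusted p = 0.0284). Each of the 3 calls was lost when a single WT library was left out, with adjusted p-values of up to 0.0975.

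HLA-DQB1, a class II antigen presentation gene with close paralogs whose reads the counting could split, had 10.5, 17.3 and 10.5 TPM in 3p loss, 15.6, 46.8 and 15.9 TPM in 3q gain and 0.818, 0.753 and 2.33 TPM in WT libraries (3.02 ± 0.42, limma adjusted p = 0.00344). ENPP4, an ectoenzyme that cleaves dinucleotides, had 6.20, 4.79 and 9.87 TPM in 3p loss, 5.81, 8.33 and 7.79 TPM in 3q gain and 0.0592, 0.395 and 0.596 TPM in WT libraries. Its levels were low but its groups were well apart (2.58 ± 0.24, limma adjusted p = 0.000755). POF1B, an actin-binding protein of epithelia, had 9.22 ± 2.71 TPM in the altered libraries and 0.998 ± 0.600 TPM in WT (SD, n = 6 and 3; 2.35 ± 0.29, limma adjusted p = 0.00205). EYA2, a transcriptional co-activator and phosphatase, had 13.5 ± 10.4 TPM in the altered libraries and 0.330 ± 0.457 TPM in WT (3.19 ± 0.55, limma adjusted p = 0.00966). SLC12A7, a potassium chloride cotransporter, had 9.01 ± 4.43 TPM in the altered libraries and 0.895 ± 1.25 TPM in WT (2.47 ± 0.45, limma adjusted p = 0.0114). ARMCX3, an X-linked armadillo repeat protein of mitochondria, had 21.1 ± 2.86 TPM in the altered libraries and 5.45 ± 7.55 TPM in WT (2.50 ± 0.57, limma adjusted p = 0.0279), with its WT level carried by WT replicate 2, at 14.1 TPM, and its call lost without WT replicate 3 (limma adjusted p = 0.11). In 3p loss against 3q gain, limma called 0 of the 12 with or without the trend, and 0 were under an unadjusted p of 0.05. Their differences ran from -1.50 for MX1 to 0.36 for MYH14, and that of MX1 was -1.50 (95% interval -3.15 to 0.14, limma adjusted p = 0.384). Here too the choice favoured genes alike in both genotypes, and 3.93% of all tested genes were called.

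Some genes moved the same way in both genotypes but by different amounts. The 3 on each side with the largest difference, among 4 higher and 15 lower genes called in 3p loss against 3q gain, are described, so their calls in that contrast follow from the choice. Same-numbered libraries of 3p loss and 3q gain deviated together, and with the replicate number as a block in that contrast 12 of the 963 genes differed, 10 of them among the 19. DKK1, a secreted inhibitor of WNT signalling (chromosome 10, 52314281 to 52317657), had 289, 293 and 610.0 TPM in 3p loss, 101, 82.7 and 95.9 TPM in 3q gain and 49.1, 24.8 and 40.0 TPM in WT libraries. The order was the same in every library, 3p loss above 3q gain above WT, and the 3p loss minus 3q gain difference was 1.99 (95% interval 1.30 to 2.69, limma adjusted p = 0.00835). DKK1 lies on 10q, where WT replicate 2 was low as a whole. Its call over both genotypes was lost without WT replicate 2 or WT replicate 3 (limma adjusted p = 0.13 and 0.114). MCM2, a subunit of the replicative helicase, lies on 3q and had 150.4, 156 and 162 TPM in 3p loss, 209.6, 225 and 234 TPM in 3q gain and 107, 108 and 107 TPM in WT libraries, with a difference of -0.51 (95% interval -0.71 to -0.31, limma adjusted p = 0.0142). It was thus highest in the genotype with the extra 3q and above WT also in 3p loss (limma adjusted p = 0.00436). BEX2, an X-linked gene of small brain-expressed proteins, had 12.4 ± 3.88 TPM in 3p loss, 24.2 ± 2.17 TPM in 3q gain and 7.28 ± 1.45 TPM in WT (SD, n = 3 each), a difference of -0.95 (95% interval -1.43 to -0.46, limma adjusted p = 0.0432).

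On the side of the falls, CCND2, the cyclin D2 gene, had 0.113, 0.0745 and 0 TPM in 3p loss, 14.1, 12.8 and 1.25 TPM in 3q gain and 45.2, 24.0 and 55.4 TPM in WT libraries. It was close to 0 in 3p loss and intermediate and uneven in 3q gain, a difference of -2.87 (95% interval -4.30 to -1.44, limma adjusted p = 0.0378). FLI1, an ETS transcription factor, had 0.0874 ± 0.107 TPM in 3p loss, 3.93 ± 2.68 TPM in 3q gain and 11.1 ± 1.10 TPM in WT (SD, n = 3 each), a difference of -2.0 (95% interval -2.91 to -1.10, limma adjusted p = 0.0252). FLI1 lies on distal 11q, where 3p loss replicate 3 and 3q gain replicate 3 were low. The mean log2 level of the genes around it, relative to other autosomes, was -1.36 and -1.18 there, against -0.72 to -0.34 in the other libraries. PMEPA1, a feedback inhibitor of TGF-beta signalling and one of its targets, had 4.69 ± 1.37 TPM in 3p loss, 21.5 ± 6.58 TPM in 3q gain and 52.1 ± 17.9 TPM in WT, a difference of -1.97 (95% interval -2.66 to -1.28, limma adjusted p = 0.0087). All 3 were thus lowest in 3p loss. For these 6 genes the pooled limma adjusted p was 0.0152 to 0.0496, in a fit where the difference between genotypes is part of the spread, and each call was lost without WT replicate 2 or without WT replicate 3. In 3p loss against 3q gain, the replicate block ended the calls of BEX2 and CCND2 (limma adjusted p = 0.0588 and 0.0642). Leaving out single libraries ended those of BEX2, CCND2, FLI1 and MCM2 there, with limma adjusted p-values of up to 0.162, 0.145, 0.108 and 0.0714, and those of DKK1 and PMEPA1 held, at up to 0.044.

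The gene lists from here on, and their members, were chosen with earlier results of these data known. Their counts beside the shares of all genes describe the lists and are no independent test. Of 30 tested targets of ATF4, 16 fell, where 4.69% of all tested genes were called lower. Limma called 0 of them higher, and at unadjusted p under 0.05 24 were lower and 0 higher. The median change was -1.02, with -1.11 for 3p loss and -0.93 for 3q gain, beside 0.01 for all tested genes. ATF4 itself (chromosome 22, 39520559 to 39522686) had 222, 239 and 244 TPM in 3p loss, 261, 199 and 268 TPM in 3q gain and 525, 777 and 766 TPM in WT libraries, a change of -1.51 ± 0.14 (limma adjusted p = 0.000755). The altered libraries lay within a narrow range, well under all WT libraries. MTHFD2, a mitochondrial folate enzyme, had 109.5, 119 and 101 TPM in 3p loss, 114, 103 and 126 TPM in 3q gain and 199, 311 and 405 TPM in WT libraries (-1.38 ± 0.19, limma adjusted p = 0.00305). PSAT1, of serine synthesis, had 83.8, 70.6 and 136 TPM in 3p loss, 75.0, 63.7 and 102 TPM in 3q gain and 129, 505 and 414 TPM in WT libraries (-1.80 ± 0.39, limma adjusted p = 0.0228). CEBPB, a transcription factor that pairs with ATF4, had 107, 81.1 and 148 TPM in 3p loss, 113, 87.3 and 108 TPM in 3q gain and 197, 275 and 288 TPM in WT libraries (-1.24 ± 0.19, limma adjusted p = 0.00587). ASNS, the asparagine synthetase gene, had 65.7, 58.9 and 63.8 TPM in 3p loss, 34.2, 37.2 and 77.7 TPM in 3q gain and 84.8, 342 and 376 TPM in WT libraries (-2.02 ± 0.44, limma adjusted p = 0.0241).

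CHAC1, which degrades glutathione, had 6.99, 6.31 and 7.38 TPM in 3p loss, 4.03, 4.35 and 8.55 TPM in 3q gain and 12.0, 58.6 and 94.8 TPM in WT libraries (-2.57 ± 0.51, limma adjusted p = 0.016). The calls of PSAT1, ASNS and CHAC1 were lost without WT replicate 2 or WT replicate 3 (limma adjusted p of up to 0.105). ASNS lies on 7q, where 3p loss replicate 2 and 3q gain replicates 2 and 3 were low as a whole. In MTHFD2, PSAT1, ASNS and CHAC1, WT replicate 1 was the lowest WT library, and in PSAT1 it lay below 3p loss replicate 3. WT replicate 1 was also the lowest WT library for the list as a whole. The list's mean level relative to the average of the 9 libraries was -0.53 to -0.21 over the 6 altered libraries, against 0.16, 0.85 and 1.41 in WT replicates 1, 2 and 3. The number of members called lower was 7 when WT replicate 2 was left out, 6 for WT replicate 3 and 21 for WT replicate 1. Limma without the mean-variance trend called 15 lower and 0 higher. It also called 0 members the other way in the NF-kappa-B, p53, EGF receptor, TGF-beta, interferon and oxidative phosphorylation lists below. The stress genes DDIT3 and ATF3 were not called, with changes of -0.04 ± 0.16 and -0.39 ± 0.28.

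The promoters of 2 of the called targets are shown because they hold the element that ATF4 binds together with C/EBP factors, searched as TGATGNAA on both strands and given in capitals. They are RefSeq sequences of GRCh38.p14 before the gene start, for CHAC1 on the plus strand at chr15:40953221-40953320, where the element reads on the opposite strand, and for ASNS on the minus strand at chr7:97872423-97872522.
CHAC1: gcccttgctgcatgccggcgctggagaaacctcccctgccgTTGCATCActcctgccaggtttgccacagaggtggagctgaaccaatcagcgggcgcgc
ASNS: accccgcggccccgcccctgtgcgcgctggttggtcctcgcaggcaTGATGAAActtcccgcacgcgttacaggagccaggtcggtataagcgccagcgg
The element was found in 6 of 27 target promoters with a sequence (22.2%), in windows of 250 bases before to 50 after the start, and in 3.67% of 27305 promoters of all genes. A match of letters describes the promoter only. Besides CHAC1 and ASNS, the promoters with a match were those of ATF3, SLC3A2, SLC7A1 and FGF21. ATF3 was not called, and SLC3A2, SLC7A1 and FGF21 are not among the called targets named here.

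The footprints of 3p loss cells gave the opposite sign for this list. Of 28 members tested in edgeR, 25 were higher and 2 lower in 3p loss than in 3p WT, with a median of 1.23, where 35.1% of 11425 tested genes were called higher and 34.2% lower and the median of all was 0.02. ASNS had 3901, 4765 and 11185 footprints in the 3p loss libraries and 2164, 1557 and 2041 in the 3p WT libraries, a change of 1.55 (edgeR adjusted p = 1.71e-08), where its mRNA estimate in 3p loss was -1.81. TRIB3, a pseudokinase induced by ATF4, changed by 1.70 (edgeR adjusted p = 7e-08) in footprints, and its mRNA estimate in 3p loss was -2.10. The mRNA call of TRIB3 over both genotypes was lost without WT replicate 2 or WT replicate 3 (limma adjusted p of up to 0.129). ATF4 itself was lower in both, with -0.70 (edgeR adjusted p = 0.00177) in footprints. Footprints and mRNA are separate libraries, and the WT cells carry different labels in the 2 sets. The part of either in the difference of sign was not tested.

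**Figure D2:**
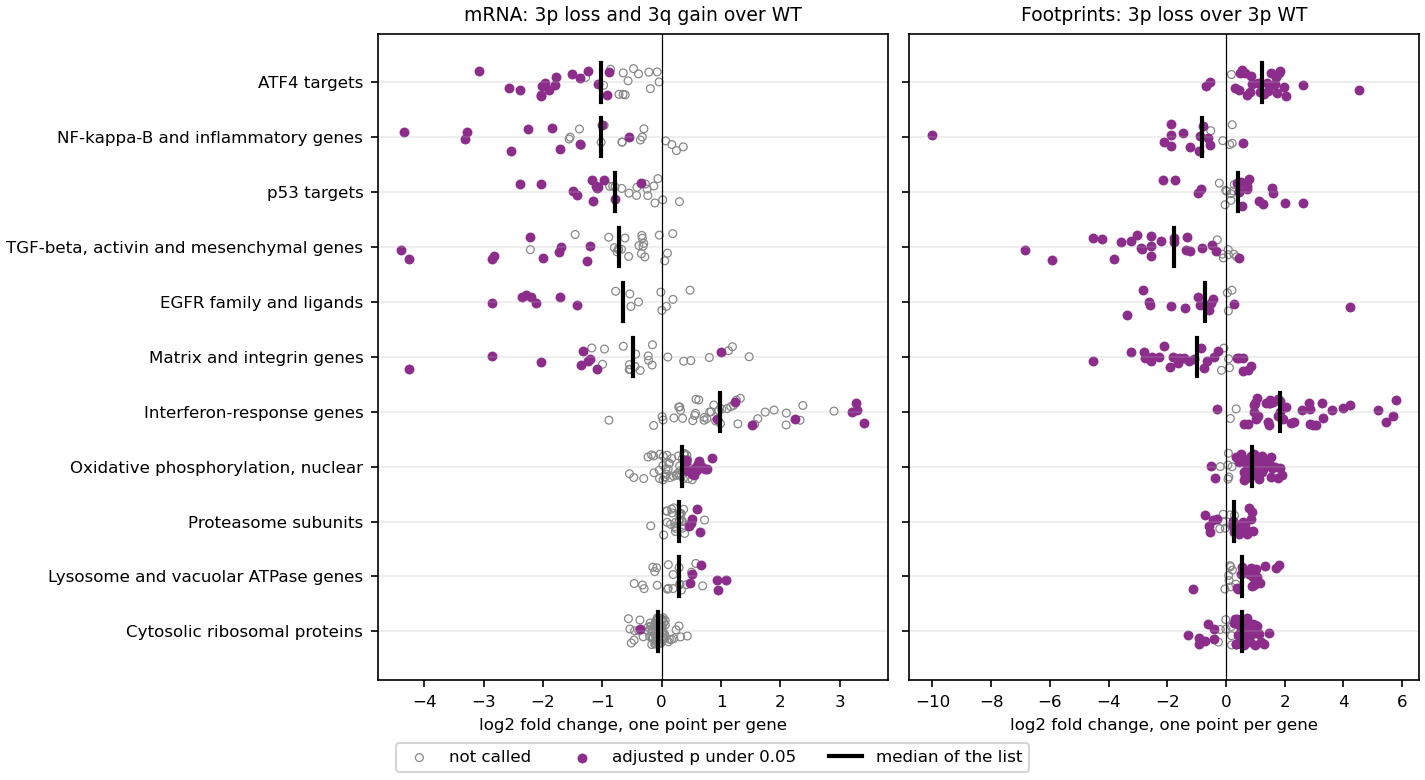
Log2 fold changes of the tested members of 11 gene lists, for mRNA of both altered genotypes over WT (left) and for footprints of 3p loss over 3p WT (right). Filled points passed an adjusted p under 0.05, open points did not, and the bars mark the medians. The ATF4 target and p53 target lists have medians of opposite sign in the 2 panels (-1.02 and 1.23, and -0.78 and 0.41), while the interferon list is above 0 in both (0.99 and 1.84).

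Of 25 tested NF-kappa-B and inflammatory genes 10 fell, where 4.69% of all tested genes were called lower. Limma called 0 of them higher, and at unadjusted p under 0.05 14 were lower and 0 higher. The median was -1.02, with -1.21 for 3p loss and -0.83 for 3q gain. TNIP1, an inhibitor of the pathway, had 83.7, 86.7 and 86.4 TPM in 3p loss, 115, 101 and 103 TPM in 3q gain and 215, 208 and 157 TPM in WT libraries (-1.0 ± 0.14, limma adjusted p = 0.00332). IL1B, a secreted interleukin, had 16.9, 7.53 and 17.8 TPM in 3p loss, 41.3, 28.6 and 18.7 TPM in 3q gain and 88.1, 129 and 140.3 TPM in WT libraries (-2.54 ± 0.41, limma adjusted p = 0.00717). TNFAIP3, the ubiquitin-editing inhibitor A20, had 10.7, 8.82 and 13.7 TPM in 3p loss, 39.7, 19.5 and 13.0 TPM in 3q gain and 97.2, 111 and 42.3 TPM in WT libraries (-2.25 ± 0.44, limma adjusted p = 0.0147). The highest altered library in both was 3q gain replicate 1, still below the lowest WT library. NFKB1, a subunit gene of NF-kappa-B, fell by less, with 15.9, 17.6 and 19.3 TPM in 3p loss, 22.7, 19.9 and 20.3 TPM in 3q gain and 26.5, 26.9 and 32.7 TPM in WT libraries (-0.55 ± 0.13, limma adjusted p = 0.0324). The transcription factor subunit gene RELB, the growth factor gene LIF and the prostaglandin synthase gene PTGS2 fell along with CSF3, TNF and IL1A. CSF3, TNF and IL1A also stand among the 12 largest falls given above. The calls of TNFAIP3, NFKB1, RELB, LIF and PTGS2 were lost without WT replicate 2 or WT replicate 3 (limma adjusted p of up to 0.124). IL6 and NFKBIA, the classical cytokine and inhibitor of the pathway, stood at -1.54 ± 0.55 and -0.66 ± 0.18, above the threshold (limma adjusted p = 0.105 and 0.0515). Of the 963 genes called in the pooled fit, RELB was among the 19 that differed between the genotypes, -0.84 (95% interval -1.21 to -0.48, limma adjusted p = 0.0214), though not with the replicate block (limma adjusted p = 0.0532) and not in several fits without 1 library (up to 0.0905).

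The NF-kappa-B element, searched on both strands as GGGA, any base, TT, any base and CC, lay in 10 of 26 promoters of the list (38.5%) and in 1.41% of all promoters. It is shown in capitals for TNFAIP3 (chr6:137867146-137867245) and NFKB1 (chr4:102501259-102501358), both on the plus strand of GRCh38.p14 and both called lower, the element of TNFAIP3 reading on the opposite strand, since these genes are inhibitor and subunit of the pathway.
TNFAIP3: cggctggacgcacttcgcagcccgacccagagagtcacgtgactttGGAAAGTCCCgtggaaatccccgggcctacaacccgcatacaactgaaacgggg
NFKB1: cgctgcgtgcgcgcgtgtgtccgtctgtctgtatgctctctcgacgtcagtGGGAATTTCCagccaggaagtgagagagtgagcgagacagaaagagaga
Both stretches end before the gene start. Besides TNFAIP3 and NFKB1, the promoters with a match were those of IL6, CXCL1, CXCL2, CXCL3, CXCL5, CXCL6, NFKBIA and NFKBIZ. None of these other genes is among the called members named above, and a match of letters describes the promoter only. In footprints of 3p loss, 12 of 18 tested members of the list were lower and 1 higher, with a median of -0.83. Among all genes tested there, 34.2% were called lower and 35.1% higher. CSF3 had 0 footprints in each of the 3p loss libraries, and 115, 92 and 145 in the 3p WT libraries. Against a floor of 3 counts over the 3 libraries, it was at least 133-fold lower in 3p loss. The mean was 16.9 CPM (counts scaled to one common library total) in 3p WT, and the floor is 0.127 CPM. IL1B fell as well, with a change of -1.88 (edgeR adjusted p = 5.43e-05), and PTGS2 was not called, at -0.11 (edgeR adjusted p = 0.681).

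Of 27 tested targets of p53, 12 fell in mRNA and 0 were called higher in limma, where 4.69% of all tested genes were called lower. The median was -0.78, with 16 lower and 0 higher at unadjusted p under 0.05. CDKN1A, the cell cycle inhibitor p21, had 124, 164 and 201 TPM in 3p loss, 102, 159.7 and 127 TPM in 3q gain and 263, 255 and 499 TPM in WT libraries (-1.17 ± 0.25, limma adjusted p = 0.0224). MDM2, the ubiquitin ligase of p53, had 23.1, 33.5 and 25.8 TPM in 3p loss, 25.6, 34.8 and 24.6 TPM in 3q gain and 81.6, 44.7 and 136 TPM in WT libraries (-1.49 ± 0.28, limma adjusted p = 0.014). GADD45A, a DNA damage gene, had 140.0, 73.8 and 131 TPM in 3p loss, 90.8, 98.0 and 77.6 TPM in 3q gain and 179.9, 382 and 276 TPM in WT libraries (-1.42 ± 0.26, limma adjusted p = 0.0118). TRIAP1, an inhibitor of cell death, fell by less (-0.35 ± 0.094, limma adjusted p = 0.0447). WT replicate 3 was the highest library of CDKN1A and MDM2, and without it 2 members of the list were called. Without 3p loss replicate 2, 3q gain replicate 2 or WT replicate 1, 7 were called. The calls of CDKN1A, GADD45A and TRIAP1, and those of GDF15 and SESN2, were lost without WT replicate 2 or WT replicate 3 (limma adjusted p of up to 0.151). GDF15 and SESN2 stand in both the ATF4 and the p53 list. In footprints of 3p loss, 14 of 26 were higher and 4 lower, where 35.1% of all genes tested there were called higher and 34.2% lower. CDKN1A changed by 1.14 in footprints (edgeR adjusted p = 2.41e-06).

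Of 16 tested ligands, receptors and feedback genes of the EGF receptor family 7 fell and 0 were called higher, where 4.69% of all tested genes were called lower. At unadjusted p under 0.05 8 were lower and 0 higher, and the median was -0.66. AREG, amphiregulin, had 46.7, 37.8 and 34.5 TPM in 3p loss, 83.2, 59.4 and 38.5 TPM in 3q gain and 269, 373 and 429.5 TPM in WT libraries (-2.85 ± 0.27, limma adjusted p = 0.000755). EREG, epiregulin, had 3.50, 4.78 and 3.67 TPM in 3p loss, 6.52, 5.83 and 3.95 TPM in 3q gain and 18.4, 29.0 and 23.7 TPM in WT libraries (-2.12 ± 0.21, limma adjusted p = 0.000911), and HBEGF, another ligand, had 7.30, 8.58 and 6.77 TPM in 3p loss, 14.2, 12.7 and 12.5 TPM in 3q gain and 30.9, 78.9 and 67.6 TPM in WT libraries (-2.35 ± 0.32, limma adjusted p = 0.00305). In each of these genes all altered libraries were below all WT libraries, and 3q gain replicate 1 was the highest altered library. The phosphatase genes DUSP6 and DUSP4 and the inhibitors SPRY4 and PHLDA1, which ERK signalling induces, changed by -2.28 ± 0.45, -1.43 ± 0.16, -1.72 ± 0.32 and -2.20 ± 0.35. The receptor EGFR itself had 104, 122 and 89.8 TPM in 3p loss, 79.7, 144 and 105 TPM in 3q gain and 83.4, 106 and 131 TPM in WT libraries and a change of 0.00 ± 0.19 (limma adjusted p = 0.991). Between 5 and 8 members were called lower when single libraries were left out, and the calls of DUSP6 and SPRY4 were lost without WT replicate 2 or WT replicate 3 (limma adjusted p of up to 0.067).

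Of 31 tested genes of the TGF-beta, activin and mesenchymal list 10 fell and 0 were called higher, where 4.69% of all tested genes were called lower. At unadjusted p under 0.05 12 were lower and 0 higher, and the median was -0.73. THBS1, thrombospondin, had 153, 107 and 108 TPM in 3p loss, 149.7, 177 and 128 TPM in 3q gain and 276, 808 and 718 TPM in WT libraries (-2.0 ± 0.31, limma adjusted p = 0.00609). AXL, a receptor tyrosine kinase, had 31.9 ± 11.5 TPM in the altered libraries and 73.5 ± 10.8 TPM in WT (SD, n = 6 and 3; -1.25 ± 0.29, limma adjusted p = 0.0301), and the ligand gene TGFB2 changed by -1.74 ± 0.46. The transcription factor SNAI2 did not pass (-0.28 ± 0.25, limma adjusted p = 0.494). Without WT replicates 1, 2 and 3 in turn, 5, 6 and 4 members were called, and the calls of AXL and TGFB2 were lost in each of these fits (limma adjusted p of up to 0.13). In footprints of 3p loss 22 of 30 were lower and 1 higher, with a median of -1.76, beside 34.2% lower and 35.1% higher among all genes. Of the 3 fibroblast markers tested, limma called 0 with or without the trend, 0 were under an unadjusted p of 0.05, and their summed level was given above.

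Of 30 tested matrix and integrin genes 8 fell and 1 rose, with a median of -0.49. Beside this list and those below, 4.69% of all tested genes were called lower and 3.88% higher. Without WT replicate 2 there were 3 lower calls and without WT replicate 3 there were 2. The laminin gene LAMA3 changed by -1.21 ± 0.26, the hyaluronan receptor gene CD44 by -1.09 ± 0.24 and the integrin gene ITGA5 by -1.35 ± 0.28. LAMA5, another laminin chain, was the member that rose, with 80.1 ± 14.9 TPM in the altered libraries and 40.5 ± 13.0 TPM in WT (SD, n = 6 and 3; 1.00 ± 0.22, limma adjusted p = 0.0241). The calls of LAMA3, CD44, ITGA5 and LAMA5 were lost without WT replicate 2 or WT replicate 3 (limma adjusted p of up to 0.0977). Of 23 contractile genes 7 fell, with ACTB, the beta-actin gene, at 3832 ± 316 TPM in the altered libraries and 5499.5 ± 779 TPM in WT (-0.51 ± 0.11, limma adjusted p = 0.0202) and MYH9, a nonmuscle myosin heavy chain, at 362 ± 41.4 TPM in the altered libraries and 569 ± 80.2 TPM in WT (-0.65 ± 0.12, limma adjusted p = 0.012). Without WT replicate 1 or 2, 3 contractile genes were called lower, and without WT replicate 3, 2. ACTB was not called without WT replicate 1, without WT replicate 2 or with median centring (limma adjusted p = 0.0608, 0.0756 and 0.0604). MYH14, described above, was the 1 member of the list called higher. Among axon guidance genes 4 of 23 fell, namely ROBO1, PLXNB2, NRP2 and EFNB1. PLXNB2 and EFNB1 were not called without WT replicate 3, which left 2 (limma adjusted p = 0.0676 and 0.123).

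**Figure D3:**
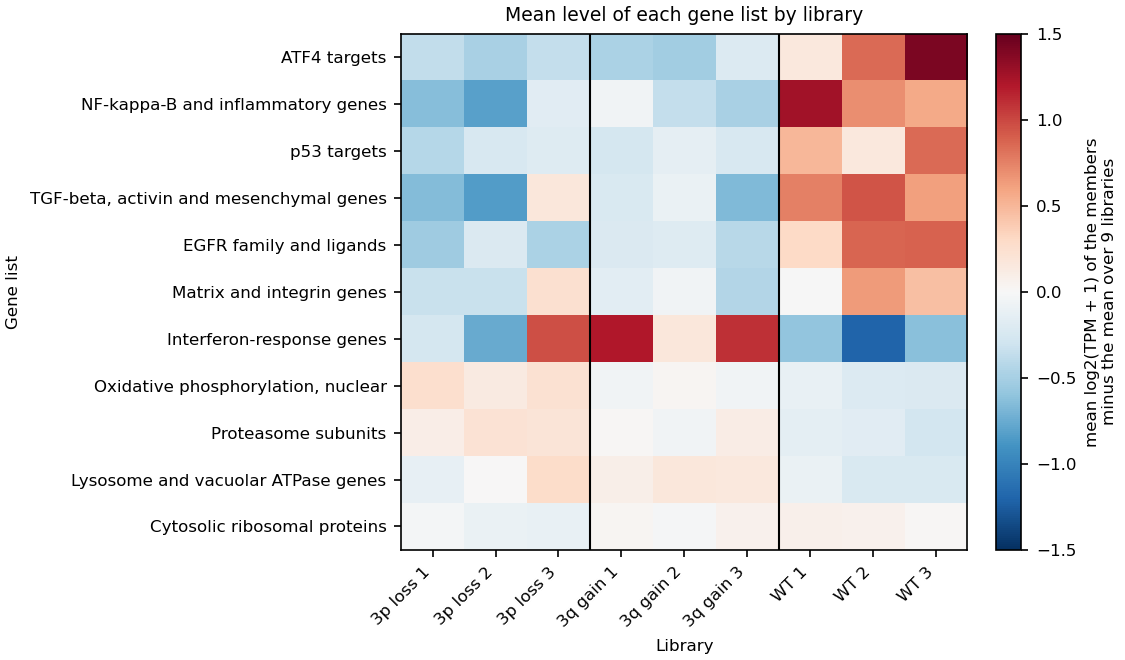
Mean log2(TPM + 1) of the tested members of 11 gene lists in each library, as the difference from the mean of the 9 libraries, with 3p loss on the left, 3q gain in the middle and WT on the right. The colour scale runs from -1.5 to 1.5. ATF4 targets stand at 0.16, 0.85 and 1.41 in the WT libraries, and interferon-response genes vary from -0.75 to 1.20 within the altered libraries.

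Of 47 tested interferon-response genes 8 rose, where 3.88% of all tested genes were called higher. Limma called 0 of them lower, and 27 were higher and 0 lower at unadjusted p under 0.05, with a median of 0.99 (0.61 in 3p loss and 1.41 in 3q gain). IFI6, IFI27 and MX1 were given above. IFITM1, a membrane protein that restricts virus entry, had 15.7, 47.4 and 102 TPM in 3p loss, 162, 48.7 and 203 TPM in 3q gain and 17.0, 2.90 and 3.37 TPM in WT libraries (3.41 ± 0.77, limma adjusted p = 0.0262), so that 3p loss replicate 1 lay within the WT range. IRF9, the DNA-binding subunit of the interferon-activated complex, had 39.3 ± 18.8 TPM in the altered libraries and 12.4 ± 4.95 TPM in WT (SD, n = 6 and 3; 1.53 ± 0.40, limma adjusted p = 0.043). USP18, a negative regulator of the receptor, changed by 1.23 ± 0.26 (limma adjusted p = 0.0193). The calls of IFITM1, IRF9 and USP18 were lost without WT replicate 2 or WT replicate 3 (limma adjusted p of up to 0.144). ISG15, a ubiquitin-like protein that defines the response, had 129, 63.6 and 415 TPM in 3p loss, 448, 142 and 344 TPM in 3q gain and 178, 149 and 169 TPM in WT libraries. Its groups overlapped, and it did not pass (0.32 ± 0.56, limma adjusted p = 0.746).

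Interferon-response genes were uneven among the altered libraries. The list's mean level was -0.26, -0.75 and 0.97 in 3p loss, 1.20, 0.17 and 1.10 in 3q gain and -0.60, -1.21 and -0.63 in WT replicates 1 to 3, so 3p loss replicate 2 lay within the WT range. The number called higher was 17 with 3p loss replicate 2 left out, 5 with 3q gain replicate 3 left out, 1 with WT replicate 2 left out and 0 with WT replicate 3 left out, where 22 were higher at unadjusted p under 0.05. In footprints of 3p loss, 38 of 41 members were higher and 1 lower, with a median of 1.84, beside 35.1% higher and 34.2% lower among all genes. MX1 had 1083, 1245 and 3328 footprints in 3p loss and 94, 62 and 96 in 3p WT, a change of 4.23 (edgeR adjusted p = 5.62e-11), and IFI6 changed by 5.70 (edgeR adjusted p = 4.72e-10). Of 17 class I antigen presentation genes 1 rose, which is close to the 3.88% of all tested genes called higher. It was the chaperone gene CALR (0.71 ± 0.14, limma adjusted p = 0.0177), whose call was lost without WT replicate 2 or WT replicate 3 (limma adjusted p of up to 0.078). Without 3p loss replicate 2, 5 of these genes were called higher, without WT replicate 1, 4, and B2M did not pass (0.61 ± 0.21).

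Of 61 tested nuclear genes of oxidative phosphorylation 16 rose, where 3.88% of all tested genes were called higher. None was called lower by limma, and the median was 0.35, with 31 higher and 2 lower at unadjusted p under 0.05. COX7C, a subunit of cytochrome c oxidase, had 2783, 2647 and 2818 TPM in 3p loss, 2231, 2386 and 2311 TPM in 3q gain and 1846, 1598 and 1591 TPM in WT libraries (0.59 ± 0.10, limma adjusted p = 0.00988). UQCRH, a subunit of complex III, had 1458, 1479 and 1492 TPM in 3p loss, 1174, 1251 and 1312 TPM in 3q gain and 1029, 999 and 837 TPM in WT libraries (0.51 ± 0.11, limma adjusted p = 0.0211). In both genes all altered libraries were above all WT libraries. NDUFB4 and NDUFB5, complex I genes on 3q, rose, NDUFB4 with estimates of 0.66 ± 0.10 in 3p loss and 1.03 ± 0.10 in 3q gain. Calls in this list fell to 7 without WT replicate 2 and 4 without WT replicate 3, and to 10 with the replicate block. The calls of UQCRH and NDUFB5 were lost without WT replicate 3 (limma adjusted p = 0.0889 and 0.0573). Footprints of 3p loss were higher in 43 of 52 members and lower in 2, with a median of 0.90, beside 35.1% higher and 34.2% lower among all genes.

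Of 31 proteasome subunit genes 5 rose, where 3.88% of all tested genes were called higher, and the median was 0.30. PSMD2, on 3q, had 323, 359.8 and 364 TPM in 3p loss, 409, 392 and 470.1 TPM in 3q gain and 244, 242 and 246 TPM in WT libraries (0.65 ± 0.11, limma adjusted p = 0.00975), and PSMA3 changed by 0.50 ± 0.13. The count of 5 was 1 without WT replicate 2 or WT replicate 3, where PSMA3 was not called (limma adjusted p of up to 0.157), 3 without 3q gain replicate 3 and 12 for the average of both genotypes in a 3-group fit. Of 26 lysosome and vacuolar ATPase genes 6 rose, beside the same 3.88% of all tested genes, the median again being 0.30. CTSD, the protease cathepsin D, had 1010.0, 682 and 1083 TPM in 3p loss, 580.5, 855 and 701 TPM in 3q gain and 354, 324 and 469.8 TPM in WT libraries (1.08 ± 0.20, limma adjusted p = 0.0134), and PSAP, the saposin precursor, changed by 0.94 ± 0.20 (limma adjusted p = 0.0217). Without WT replicate 2, 1 lysosome gene was called, and neither of these (limma adjusted p = 0.0575 and 0.0553), and without WT replicate 3, 2 were. PSAP lies on 10q, where WT replicate 2 was low as a whole.

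Of 31 targets of NRF2, the transcription factor of oxidant defence, 6 rose, with a median of 0.37. Without single libraries 2 to 9 rose, fewest without WT replicate 2. Beside this list and the cell cycle list, 3.88% of all tested genes were called higher and 4.69% lower. NQO1, its classical target, had 155, 174 and 176 TPM in 3p loss, 173, 147 and 207 TPM in 3q gain and 118, 96.3 and 104 TPM in WT libraries (0.69 ± 0.12, limma adjusted p = 0.0092). SLC7A11, the cystine transporter, which ATF4 induces too, was the member that fell (-1.78 ± 0.47, limma adjusted p = 0.0449), a call lost in most alternatives (limma adjusted p of up to 0.162). Of 47 cell cycle genes 8 rose and 1, CCND2, fell. Without WT replicate 2 or WT replicate 3, 1 rose, and without 3q gain replicate 3, 3 did. CDC20, an activator of the anaphase-promoting complex, changed by 0.53 ± 0.14 (limma adjusted p = 0.0421). AURKA, a mitotic kinase, had 331, 470.0 and 329 TPM in 3p loss, 275, 329 and 357 TPM in 3q gain and 235, 236 and 181 TPM in WT libraries (0.67 ± 0.16, limma adjusted p = 0.0299), and the helicase genes MCM4 and MCM6 changed by 0.43 ± 0.090 and 0.67 ± 0.15. The calls of CDC20, AURKA, MCM4 and MCM6 were lost without WT replicate 3 (limma adjusted p = 0.153, 0.118, 0.0692 and 0.0835). Of 77 cytosolic ribosomal protein genes 1 was called, RPL3, which lies on distal 22q, and the median was -0.06. The call of RPL3 was lost in most alternatives (limma adjusted p of up to 0.109).

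In keratins, KRT19, a simple epithelial keratin, rose, with 4757, 3867 and 1920.4 TPM in 3p loss, 1014, 2068 and 2307 TPM in 3q gain and 579, 251 and 638 TPM in WT libraries (2.38 ± 0.46, limma adjusted p = 0.014, and 0.0594 without WT replicate 2), while KRT14 and KRT6B fell. Limma called 1 of 10 suprabasal and simple keratins higher and 2 of 9 basal and stress keratins lower. Between 3p loss and 3q gain, 4 and 3 of them differed, where 3.93% of all tested genes did. Their medians were 1.32 and 0.70 in 3p loss, and -0.15 and -0.12 in 3q gain. Beside the pooled counts, 3.88% of all tested genes were called higher and 4.69% lower. KRT5, the basal partner of KRT14, had 14158, 9537 and 8468 TPM in 3p loss, 6074, 8562 and 5288 TPM in 3q gain and 3379, 6384 and 7509 TPM in WT libraries, did not pass (0.60 ± 0.32, limma adjusted p = 0.25) and overlapped between the groups. The alarm protein genes S100A8 and S100A9 fell (-2.81 ± 0.37, limma adjusted p = 0.00305 for S100A8). VEGFA, a growth factor of vessels that hypoxia and ATF4 induce, fell as well (-2.29 ± 0.40, limma adjusted p = 0.00988), but S100A9 and VEGFA were not called without WT replicate 3 (limma adjusted p = 0.0596 and 0.0541). The hypoxia list as a whole had a median of 0.00 with 3 of 26 members lower and 0 higher in limma (4 and 2 at unadjusted p under 0.05), and 0 were lower without WT replicate 3.

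Beside genes of shared function, neighbours on a chromosome moved together in both genotypes. The level of an arm in a library was taken as the mean log2 level of its tested genes minus that of genes on other autosomes. 3p stood at -0.86 and -0.01 relative to WT in 3p loss and 3q gain, and 3q at 0.05 and 0.52. Of 41 arms, limma called 3 in the pooled comparison, and 7 at unadjusted p under 0.05. 22q was lower (-0.25 ± 0.037, limma adjusted p = 0.002), Xq higher (0.24 ± 0.030, limma adjusted p = 0.00126) and 11p higher (0.11 ± 0.028, limma adjusted p = 0.0415). For all 3 the altered libraries did not overlap WT, which held for 7 arms, and the exact permutation p was 0.0238, two-sided, the smallest that 6 against 3 allows. The call of 11p was lost in most alternatives (limma adjusted p of up to 0.213), and that of Xq when the median over the arm was used (limma adjusted p = 0.0795).

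**Figure D4:**
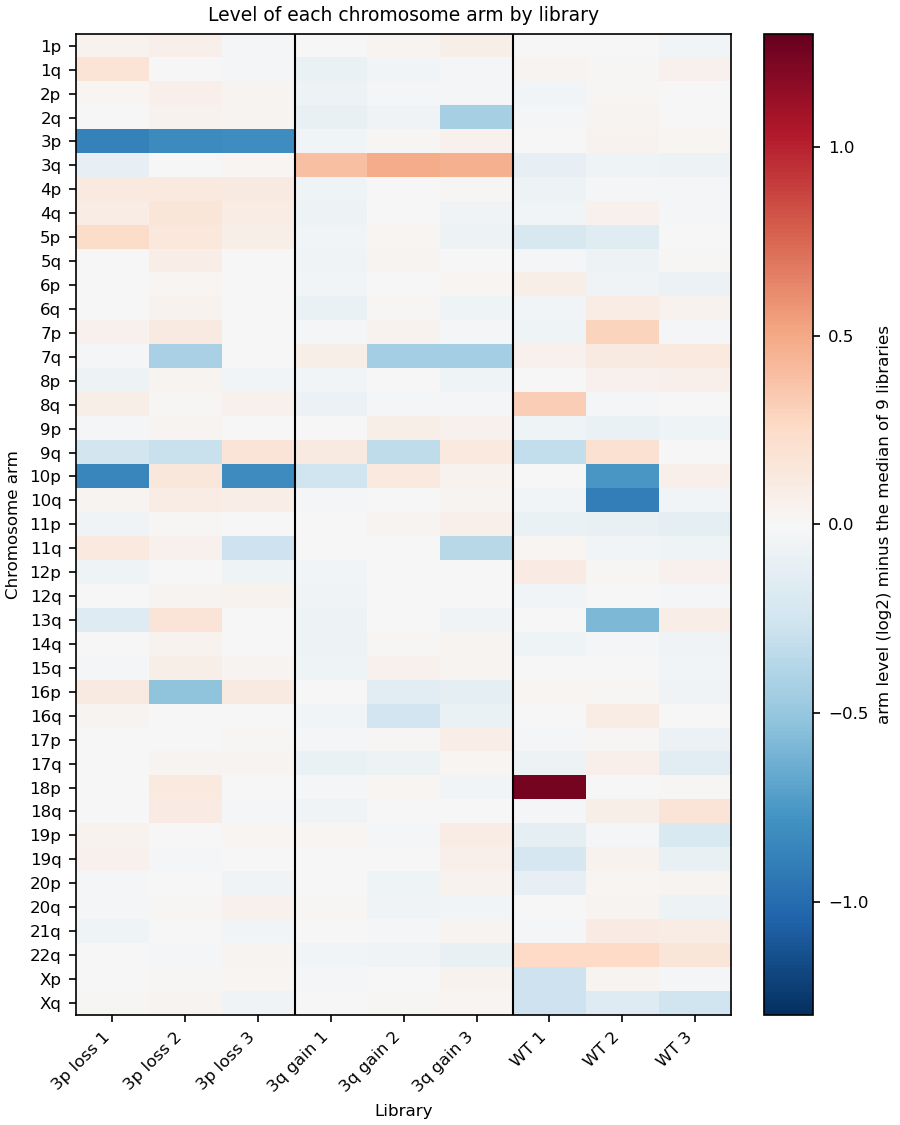
Level of each of 41 chromosome arms in each library, as the difference from the median of the 9 libraries on the log2 scale, with 3p loss on the left, 3q gain in the middle and WT on the right. The colour scale runs from -1.3 to 1.3. 3p is low in 3p loss and 3q high in 3q gain, 22q is higher in all 3 WT libraries, and single libraries stand out on 10p, 10q, 13q, 16p and 18p.

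On 22q, 84 of 269 tested genes (31.2%) were called lower and 12 higher, where 4.69% of all tested genes were called lower. The falls crowded at the end of the arm. In a stretch from APOBEC3C to RABL2B (chromosome 22, 39014257 to 50783636), chosen after the values were seen and so not tested, 67 of 96 genes fell and 0 were called higher, and all altered libraries were below WT in 74. The median was -0.85 (a fold of 0.554), with -0.83 in 3p loss and -0.88 in 3q gain. The 173 genes of 22q outside it had a median of 0.07. The mean level of the stretch was -0.49, -0.51 and -0.50 in 3p loss, -0.59, -0.64 and -0.58 in 3q gain and 0.24, 0.31 and 0.18 in WT libraries.

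Genes of the stretch serve many functions. TSPO, a mitochondrial membrane protein, had 128, 109 and 114 TPM in 3p loss, 151, 137 and 135 TPM in 3q gain and 347, 358 and 319 TPM in WT libraries (-1.40 ± 0.11, limma adjusted p = 0.000452). ADSL, an enzyme of purine synthesis, had 68.9, 66.4 and 56.0 TPM in 3p loss, 66.1, 65.5 and 62.9 TPM in 3q gain and 156, 146 and 142 TPM in WT libraries (-1.19 ± 0.093, limma adjusted p = 0.000425). SREBF2, the transcription factor of cholesterol synthesis, had 57.9, 66.2 and 65.3 TPM in 3p loss, 64.2, 74.0 and 72.4 TPM in 3q gain and 129, 121 and 140.1 TPM in WT libraries (-0.95 ± 0.10, limma adjusted p = 0.00116). In all 3 genes the altered libraries were close together and below every WT library. ATF4 and ADM2 lie in this stretch as well, so that the fall of ATF4 mRNA cannot be told apart from that of its neighbours. In footprints of 3p loss against 3p WT, 69 of 88 genes of the stretch were lower, with a median of -1.04, beside 34.2% lower among all genes. In 8p loss against 8p WT mRNA the median was 0.01. The DNA copy number of these cells was not analysed here.

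**Figure D5:**
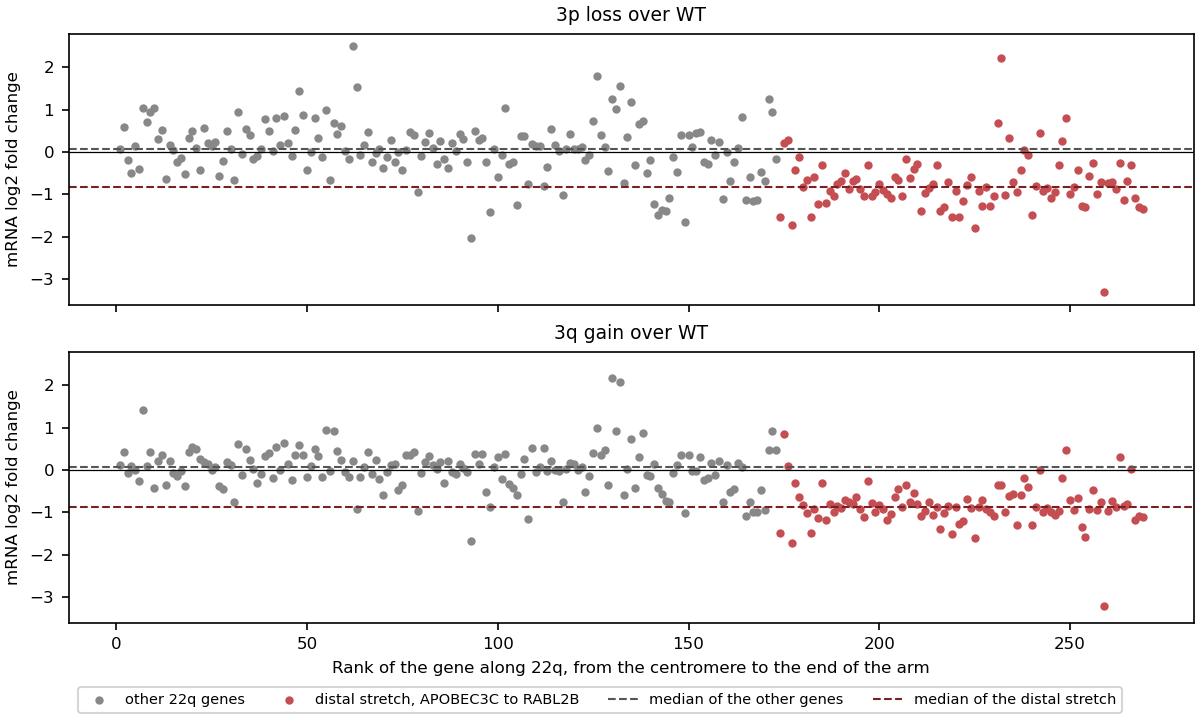
Log2 fold changes of the 269 tested genes of 22q in their order along the arm, for 3p loss over WT (top) and 3q gain over WT (bottom), which share the WT libraries. Red points are the 96 genes from APOBEC3C to RABL2B and grey points the other genes, with their medians as dashed lines. The distal genes lie around -0.83 and -0.88, and the other genes around 0.07.

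A shorter stretch of 21q behaved alike. Of 10 tested genes from MRPL39 to BACH1 (chromosome 21, 25585656 to 29361894; chosen after the values were seen) 9 fell, with a median of -0.93, -0.96 in 3p loss and -0.97 in 3q gain. APP, the amyloid precursor gene, had 163, 162 and 171 TPM in 3p loss, 161, 203 and 160.2 TPM in 3q gain and 302, 461 and 394 TPM in WT libraries (-1.16 ± 0.14, limma adjusted p = 0.00161). CCT8, a chaperonin subunit, had 211, 241 and 183 TPM in 3p loss, 215, 219 and 213 TPM in 3q gain and 388, 346 and 329 TPM in WT libraries (-0.73 ± 0.10, limma adjusted p = 0.00328). BACH1, a repressor of NRF2 target genes, had 9.87, 11.0 and 9.34 TPM in 3p loss, 9.55, 10.8 and 8.72 TPM in 3q gain and 17.3, 28.5 and 25.7 TPM in WT libraries (-1.17 ± 0.16, limma adjusted p = 0.00328). None of the altered libraries reached a WT library in these genes. The 5 genes with footprint values had a median of -0.49 there, and in 8p loss mRNA the 10 genes had a median of -0.01.

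On Xq, 17 of 203 tested genes (8.37%) were called higher and 3 lower, where 3.88% of all were called higher. Among 23 genes from CENPI to TMSB15B (chromosome X, 101098204 to 103974426; chosen after the values were seen), which hold the ARMCX, BEX and TCEAL families, 3 rose, namely ARMCX3, ARMCX6 and BEX2, and the median was 0.64. These are families of related genes, and where members are alike in sequence the counting could split reads between them. ARMCX6 had 21.0, 16.7 and 13.6 TPM in 3p loss, 27.5, 25.5 and 21.4 TPM in 3q gain and 0.251, 15.6 and 0.236 TPM in WT libraries (2.86 ± 0.70, limma adjusted p = 0.035), so that WT replicate 2 lay above 3p loss replicate 3. AMOT and POF1B, described above, lie elsewhere on Xq. In footprints of 3p loss the 17 genes of the cluster with a value had a median of 0.32, and in 8p loss mRNA 21 genes had a median of -0.46.

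For the 24 genes with the largest shared changes, footprints of 3p loss mostly gave the same sign as the mRNA. Among all genes tested in footprints, 35.1% were called higher and 34.2% lower. Of the 10 higher genes with a footprint test 9 were higher, and HLA-DQB1 was not called, at 0.08 (edgeR adjusted p = 0.804). IFI27, SLC12A7 and, of the lower genes, TNF had too few footprints to be tested. IFI27 had 0, 7 and 0 footprints in 3p loss and 0 in each 3p WT library. SLC12A7 had 0, 0 and 2 in 3p loss and 3, 1 and 0 in 3p WT, and TNF had 0 in every library. AMOT had 407, 470 and 1262 footprints in 3p loss and 10, 4 and 6 in 3p WT, a change of 6.46 (edgeR adjusted p = 2.39e-10), and MYH14 changed by 3.34 (edgeR adjusted p = 1.38e-09). Of the 11 lower genes 8 were lower, and ADM2 and STC2 were higher, by 1.15 (edgeR adjusted p = 0.00836) and 1.39 (edgeR adjusted p = 3.14e-07), against their fall in mRNA. INHBA had 6, 3 and 18 footprints in 3p loss and 489, 343 and 564 in 3p WT, a change of -5.93 (edgeR adjusted p = 5.76e-10). FN1 changed by -4.53 (edgeR adjusted p = 5.88e-13) and ROBO1 by -5.64 (edgeR adjusted p = 2.54e-09). BCAT1 was not called, at 0.11 (edgeR adjusted p = 0.46). Footprint libraries 1 and 2 of each group agreed far more closely than either did with library 3. Summing them, which leaves 2 against 2, gave 9 higher of 10 and 8 lower and 2 higher of 11 again.

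In 8p loss against 8p WT mRNA, measured in another pair of cells with their own WT, more of these genes moved the opposite way than the same way. Of 10 tested genes of the higher group 3 were higher and 6 lower, and of 11 of the lower group 9 were higher and 2 lower, where 33.1% of 12302 tested genes were called higher and 36.0% lower. FN1 changed there by 2.26, CSF3 by 1.84, IRX2 by -3.19 and EYA2 by -4.19. The median of the p53 list was 0.92 in 8p loss, that of the interferon list -0.43 and that of the ATF4 list -0.04.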

How the data were processed

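Per the labels' protocols, poly(A) mRNA of the chromosome 3 cells was sequenced from both ends on a HiSeq instrument and that of the chromosome 8 cells on a NovaSeq X Plus, and footprints were taken after cycloheximide with a RiboLace kit. Human genome build GRCh38 is named in the submitters' processing notes. Which aligner, counting tool and annotation were used is not given in the sources used here. Deposited mRNA tables name no unit for the authors' values, which were read as TPM from their sums. FPKM was not excluded. The deposited footprint table holds raw counts, totalling 4596062 to 13534981 per library, which sets the precision of the footprint values by counting. Of its 20915 rows, 1061 that carry a transcript name only (0.432% to 0.568% of counts) were left out.

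Genes averaging at least 1 TPM over the 9 libraries were tested on log2(TPM + 1), a scale that understates changes of low genes, in limma 3.58.1 with a mean-variance trend (R 4.3.3). The 6 altered libraries were 1 group, and a 3-group fit gave each genotype's estimate, its standard error and the 3p loss minus 3q gain contrast. Same-numbered libraries deviated together between 3p loss and 3q gain (correlations of 0.12 to 0.158 over 3 pairs, each over 0.1) but not with WT (-0.173 to 0.0829), so the replicate number may pair the altered libraries with each other, and no label says what it marks. P-values were adjusted by Benjamini-Hochberg over all tested genes and called at 0.05. They measure the spread between the biological replicates of each genotype and between 2 altered genotypes. Values after ± are standard errors for log2 changes and SDs for TPM. Footprints were tested in edgeR 4.0.16 with the quasi-likelihood test, and 8p loss in limma within its own table. Arms with at least 20 tested genes were tested in limma and by an exact permutation.

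The genes named are the 12 largest changes on each side among called genes whose altered libraries all lie on one side of WT, ranked by the smaller of the 2 genotype estimates, with at least 5 TPM in the higher group. To these come the 3 on each side that differ most between the genotypes and, per list, the called members of highest mean TPM and uncalled members that define the list. Other genes named were chosen after their values were seen. Members and lists were chosen with earlier results of these data known. Alternatives were median centring, factors from genes off chromosomes 3 and 8, no trend, other filters, a pseudocount of 0.1, a replicate block, leaving out each library, and DESeq2 1.42.0 for footprints. Promoter sequences are from RefSeq (GRCh38.p14). Some members of the lists are not reported by name here.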

Additional observations from a re-analysis of the deposited data

Results flagged for a closer look

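In 4 of the genes with the largest shared changes, 1 of the 6 altered libraries stood apart from the other 5 by Dixon's criterion. It flags about 1 in 20 groups by chance where values are normally spread, which was not tested for these TPM values. With several genes looked at, some flags can come by chance. HLA-DQB1 had 46.8 TPM in 3q gain replicate 2, G0S2 had 3.66 TPM in 3q gain replicate 1, ROBO1 had 2.08 TPM in 3q gain replicate 3 and BCAT1 had 1.69 TPM in 3p loss replicate 1, each the highest altered library of its gene.

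Limma's test of 3p loss against 3q gain called 19 genes that changed the same way in both genotypes, 10 of them also with the replicate block, and the 6 given here were picked as the 3 on each side that differ most, so that their calls follow from the choice. The 3p loss minus 3q gain difference was 1.99 for DKK1, -0.95 for BEX2, -0.51 for MCM2, -2.87 for CCND2, -2.0 for FLI1 and -1.97 for PMEPA1 on the log2 scale.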

How the results depend on the processing

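The count of 963 genes called with both altered genotypes pooled against WT was 636 with a replicate block (283 higher, 353 lower, 600 of them shared). It was 1596 for the average of both genotypes in a 3-group fit (721 higher, 875 lower, including all 963) and 294 to 1108 without single libraries. The 3 same-numbered pairs of 3p loss and 3q gain correlated at 0.12 to 0.158 and those with WT at -0.173 to 0.0829, against -0.19 to 0.128 for other numbers, and 5 of 9 libraries were closest to their own number. The replicate block ended the calls of IRX2, DKK1, BEX2, KRT14, CCND2, FLI1, PMEPA1, NFKB1, PTGS2, TRIAP1, AXL, TGFB2, EFNB1, PSMA3, SLC7A11, CDC20, RPL3, CYP1B1 and DNAJB1 against WT. Outside chromosomes 2, 3, 7, 10, 13, 16, 18, 21 and 22, an alternative chosen after seeing the data, 602 genes were called. Without single libraries, 3p loss against WT gave 990 to 1546 genes, 3q gain against WT 110 to 634 and 3p loss against 3q gain 187 to 475. The number of arms called was 1 with the median over the arm and 8 in the 3-group fit. For the whole comparisons the other alternatives stayed within 1.5 times, but the counts within gene lists did not, as given beside them. Of 105 called genes named, 46 kept their call under every alternative, none changed sign, and 59 lost it without WT replicate 2 (43 genes) or WT replicate 3 (53 genes), with limma adjusted p-values of up to 0.162 over all alternatives. These were IRX2, IFI27, IFI6, MX1, ARMCX3, DKK1, BEX2, MCM2, FN1, KRT14, CCND2, FLI1, PMEPA1, PSAT1, ASNS, CHAC1, TRIB3, TNFAIP3, NFKB1, RELB, LIF, PTGS2, CDKN1A, GADD45A, TRIAP1, GDF15, SESN2, DUSP6, SPRY4, AXL, TGFB2, LAMA3, CD44, ITGA5, LAMA5, ACTB, PLXNB2, EFNB1, IFITM1, IRF9, USP18, CALR, UQCRH, NDUFB5, PSMA3, CTSD, PSAP, SLC7A11, CDC20, AURKA, MCM4, MCM6, RPL3, KRT19, S100A9, VEGFA, ARMCX6, CYP1B1 and DNAJB1.

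Signs turned in contrasts that were not called. Without single libraries, 3p loss minus 3q gain ran from -1.50 to 0.43 for IFI27, -0.35 to 0.10 for ENPP4, -0.21 to 0.0032 for ARMCX3, -0.075 to 0.56 for POF1B, -0.059 to 0.15 for CSF3, -1.37 to 0.58 for FN1, -0.037 to 0.65 for BCAT1, -0.29 to 0.0096 for TNF and -0.74 to 0.40 for TFPI2. In 8p loss, MX1 stood at 0.00041 with median centring, 0.039 with factors off chromosomes 3 and 8, and -0.0099 to 0.011 without single libraries. HLA-DQB1 footprints ran from -0.058 to 0.17 without single libraries. The cause was not tested. Footprint libraries 1 and 2 of each group differed beyond sampling noise, but far less than other pairs (chi-square per degree of freedom of 1.34 and 1.38, against 6.94 to 12.4). Summing them, an alternative chosen after seeing the data, called 6797 genes, against 7913. Unknown mRNA depth, 2 altered genotypes and 1 shared WT limit all mRNA results.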

Other observations

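Some genes differed between the genotypes. Of 15 tested ID and BMP genes, limma called 0 in the pooled comparison with or without the mean-variance trend, and 3 were higher and 1 lower at unadjusted p under 0.05. Yet 7 differed between 3p loss and 3q gain (6 with the replicate block), and the list's median stood at 1.56 for 3p loss, against 0.01 for 3q gain. CYP1B1, a xenobiotic-metabolising enzyme called lower in the pooled comparison, averaged 33.2 ± 19.9 TPM in 3p loss, 7.81 ± 0.440 TPM in 3q gain and 73.8 ± 14.0 TPM in WT (SD, n = 3 each), lowest in 3q gain, with a difference of 1.81 (95% interval 1.07 to 2.55, limma adjusted p = 0.0163), and that call was lost without any 1 of the 3q gain libraries (limma adjusted p of up to 0.0671).

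Cholesterol and fatty acid synthesis genes had a pooled mRNA median of 0.01, with 3 of 27 higher and 1 lower, while footprints of 3p loss were lower in 20 of 26 and higher in 2, with a median of -1.28. Cytosolic ribosomal protein genes, with 1 of 77 called in mRNA, had higher footprints in 47 of 61 and lower in 7. For both lists, 35.1% of all genes tested in footprints were called higher and 34.2% lower. Of 15 heat shock chaperone genes 1 rose, DNAJB1. In the unfolded protein response list 1 of 22 rose and 1 fell, beside 3.88% higher and 4.69% lower among all genes tested in mRNA. The part of the assay and of the WT cells in these differences was not tested.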
